A study of Mus musculus with 22 samples.

Results

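Rhox5, Rhox6, Rhox9, Taf7l, Fkbp6, Hormad2, Ldhc, Xlr4a, Piwil2 and Dazl are genes of the germ line that were picked because their signal differed between culture media in mouse embryonic stem cells. These 10 genes were found by their symbols among the probes of 2 Illumina bead-array platforms, by 12 probes on MouseRef-8 and by 15 probes on MouseWG-6. On MouseRef-8 all 10 passed the filter on dim probes, among 9207 genes tested in all, and on MouseWG-6 8 did, among 11003. The rule used the contrasts between media of lines B18 and B20, so the values of the 10 genes in those contrasts are given as a description, and counts of calls there support nothing.

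All cells were embryonic stem cells grown with LIF in the serum-free medium N2B27, and the media differed in small-molecule inhibitors. R2i holds PD0325901, an inhibitor of the kinase MEK, and SB431542, an inhibitor of the TGF-beta type I receptor kinases. 2i holds PD0325901 and CHIR99021, an inhibitor of the kinase GSK3. PD holds PD0325901 alone and SB holds SB431542 alone. Lines B20 and B18 came from C57BL/6 blastocysts, were derived and kept in R2i, and were then grown for 10 passages in 2i or in PD. Each of them gave 3 arrays in R2i, 2 in 2i and 3 in PD. Line C17 is from BALB/c and line B4 from C57BL/6, each with 1 array in R2i, SB and PD. The culture protocol in the labels names B20 and B18, not C17 and B4. For the C17 arrays in PD and SB the cell line label reads B4, whereas title, source and strain read C17. Over the 100 genes with the largest difference between C17 and B4 in R2i, the PD array labelled C17 was closer to C17 for 90 genes and the SB array for 96. The PD and SB arrays of B4 were closer to C17 for 7 and 26 of those genes. The titles were followed.

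In mammals, many germ cell genes are kept silent in somatic cells by methylation of CG-rich promoters and by repressor complexes that hold E2F6, MGA and MAX. Embryonic stem cells grown with a MEK and a GSK3 inhibitor are known for low global DNA methylation and for transcription of some of these genes. RHOX5, RHOX6 and RHOX9 are homeobox proteins of a cluster on the X chromosome that is expressed in gonads and placenta. TAF7L is a germ cell relative of the TFIID subunit TAF7. FKBP6 and the Argonaute-family protein PIWIL2 (MILI) act in the piRNA pathway against transposons. HORMAD2 sits on meiotic chromosome axes, LDHC is the lactate dehydrogenase of sperm, and DAZL is an RNA-binding protein that germ cells need. Xlr4a belongs to an X-linked family related to the meiotic protein SYCP3. It has near-identical copies, so its probe could also read RNA of Xlr4b or Xlr4c.

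Of the 10 genes, 5 lie on the X chromosome. In RefSeq's annotation of GRCm38.p6, Rhox5 spans chrX:37754608-37808878, Rhox6 spans chrX:37827055-37829857 and Rhox9 spans chrX:37899097-37901770. The promoter table from RefSeq (GRCm38.p6) has windows of 300 bases, 250 before and 50 after a transcript start, for 7 of the 10 genes, 9 windows in all. The windows below are shown for their CG content, since promoter methylation acts on CG dinucleotides, and CG is in capitals in each. They belong to Rhox5 (chrX:37754358-37754657, plus strand), Taf7l (chrX:134476441-134476740, minus strand), Fkbp6 (chr5:135349995-135350294, minus strand), Hormad2 (chr11:4441033-4441332, minus strand) and Dazl (chr17:50293571-50293870, minus strand), each read 5′ to 3′ along the gene.
Rhox5: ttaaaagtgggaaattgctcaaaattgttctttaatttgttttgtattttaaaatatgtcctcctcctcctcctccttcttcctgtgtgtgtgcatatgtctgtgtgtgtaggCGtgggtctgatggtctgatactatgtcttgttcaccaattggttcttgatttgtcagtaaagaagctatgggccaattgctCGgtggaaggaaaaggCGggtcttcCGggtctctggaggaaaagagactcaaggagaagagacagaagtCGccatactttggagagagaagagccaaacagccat
Taf7l: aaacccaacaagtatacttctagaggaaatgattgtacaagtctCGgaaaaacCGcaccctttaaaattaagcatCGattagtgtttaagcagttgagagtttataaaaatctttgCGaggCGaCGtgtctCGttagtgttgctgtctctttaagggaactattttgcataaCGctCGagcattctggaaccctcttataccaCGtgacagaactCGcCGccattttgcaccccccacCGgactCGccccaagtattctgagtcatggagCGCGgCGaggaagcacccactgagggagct
Fkbp6: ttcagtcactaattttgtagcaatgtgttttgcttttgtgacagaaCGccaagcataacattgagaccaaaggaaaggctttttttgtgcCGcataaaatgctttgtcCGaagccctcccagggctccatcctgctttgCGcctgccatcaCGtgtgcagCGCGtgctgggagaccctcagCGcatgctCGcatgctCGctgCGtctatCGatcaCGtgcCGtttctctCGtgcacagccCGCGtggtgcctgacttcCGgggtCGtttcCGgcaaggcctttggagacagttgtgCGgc
Hormad2: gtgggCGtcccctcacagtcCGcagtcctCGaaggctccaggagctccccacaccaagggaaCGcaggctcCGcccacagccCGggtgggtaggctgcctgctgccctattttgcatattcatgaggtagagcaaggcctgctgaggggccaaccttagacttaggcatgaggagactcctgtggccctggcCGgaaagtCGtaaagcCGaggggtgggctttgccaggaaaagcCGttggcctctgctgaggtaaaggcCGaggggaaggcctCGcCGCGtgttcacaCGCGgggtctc
Dazl: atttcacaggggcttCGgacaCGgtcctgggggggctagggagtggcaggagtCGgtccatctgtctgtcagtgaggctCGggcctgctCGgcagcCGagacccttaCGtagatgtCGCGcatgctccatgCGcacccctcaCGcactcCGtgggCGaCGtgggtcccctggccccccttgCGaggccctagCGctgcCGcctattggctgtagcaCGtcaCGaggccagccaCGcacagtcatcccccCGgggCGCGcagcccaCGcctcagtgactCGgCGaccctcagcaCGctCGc

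Across all 32851 windows of the table the median was 7 CG dinucleotides, with quartiles of 3 and 20. Fkbp6 had 32 and 21 in its 2 windows, Dazl 28, Taf7l 17 and Hormad2 16. Rhox5 had 5, Xlr4a 8 and Ldhc 9 and 3, so the genes that moved with medium had both CG-rich and CG-poor starts. The letters CACGTG, an E-box that MGA and MAX can bind, read the same on both strands and were in 7.2% of all windows. They occurred once in the Taf7l window, 49 bases before the start. The Fkbp6 window shown above held 2, which begin 101 and 37 bases before the start. The letters TCCCGC, the core of the E2F6 site, were searched on both strands and occurred in 20% of all windows and in none of the 9.

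**Figure D1:**
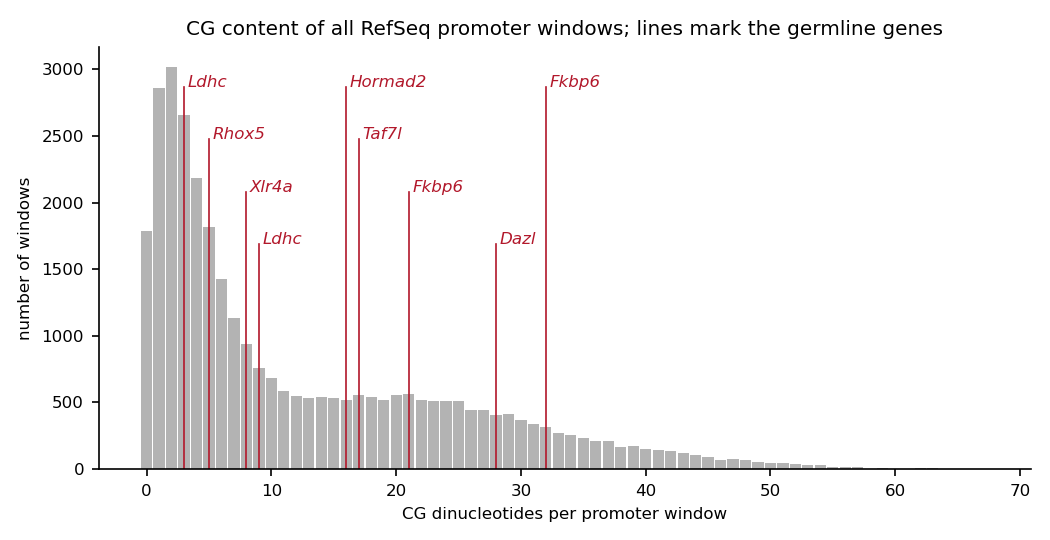
Number of RefSeq promoter windows (vertical axis) by the CG dinucleotides they hold (horizontal axis, count per 300 bases). Red lines mark the windows of the germline genes: those of Rhox5, Xlr4a and Ldhc lie between 3 and 9, and those of Hormad2, Taf7l, Dazl and Fkbp6 between 16 and 32.

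Signals are log2 intensities after background correction and quantile normalization, and a probe counts as detected on an array where its detection p-value is under 0.01. The lowest log2 signal among detected probes was 5.02 to 5.26 on the arrays of B20 and B18 and 5.02 to 5.14 on those of C17 and B4. Between 10822 and 11670 of 25697 probes were detected per MouseRef-8 array, and 13591 to 14366 of 45281 per MouseWG-6 array. B20 and B18 were each on a chip of their own, with each medium at the same positions on both, so line and chip cannot be told apart, nor can medium and position. The third PD array of B20 stood apart from the other 2, and its values are given where they touch a result. Nothing in the labels says that replicates were separate cultures, so the spread behind each p-value is that of arrays and could be technical only. In such pooled RNA, fewer cells that express a gene and less RNA per cell cannot be told apart. The number of arrays limits the precision.

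All 10 pluripotency markers examined, Pou5f1 and Nanog among them, were detected on every array. Ddx3y, a Y-linked gene, was detected on all 22 arrays, at 10.26 to 10.72 in B20, 10.28 to 10.85 in B18, 8.16 to 8.28 in C17 and 7.62 to 8.26 in B4. Xist, the RNA that coats an inactive X chromosome, was detected on 0 arrays. Of the genes of testis Sertoli and Leydig cells, 0 of 8 were detected on the arrays of B20 and B18. Of 9 fibroblast genes, 0 to 2 were detected in R2i, 1 in 2i and 0 to 1 in PD, and the collagen genes Col1a1, Col1a2 and Col3a1 on none of those arrays. The log2 of the summed fibroblast signal was 7.69 to 7.85 in R2i, 7.88 to 7.98 in 2i and 7.71 to 7.78 in PD. Its only detected member in most arrays, Thy1, was 0.29 higher in R2i than in PD (log2, SE 0.10, adjusted p = 0.043 with limma) and 0.88 higher in 2i than in PD (SE 0.11, adjusted p = 1.5e-05 with limma), and differed by -0.59 in R2i against 2i (adjusted p = 5.7e-04 with limma). The summed trophoblast signal was 11.59 to 11.86 in R2i, 11.27 to 11.50 in 2i and 10.99 to 11.70 in PD, with 4 to 5 of 11 markers detected in 2i and in PD and 5 in R2i. The summed primitive endoderm signal was 8.63 to 8.94 in R2i, 8.51 to 8.94 in 2i and 8.92 to 9.27 in PD, and that of the 2-cell-like list was 10.98 to 11.25 in R2i, 10.72 to 11.17 in 2i and 11.00 to 11.34 in PD. Of the 10 endoderm genes, Sox7 and Amn were detected on all 16 arrays of B20 and B18, Hnf4a on 14, Dab2 on 10 and Gata6 on 3, and the other 5, Gata4 and Foxa2 among them, on none. Of the 11 trophoblast genes, Tfap2c and Krt8 were detected on all 16, Krt18 on 15, Ascl2 on 10, Eomes on 9 and Gata3 on 7, and the other 5, Cdx2 and Elf5 among them, on none. The part of these markers in the results below was not tested.

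R2i and 2i were both set against PD in B20 and B18, and the PD arrays are shared by both comparisons. Over both lines, 9 of the 10 genes passed an adjusted p of 0.05 in R2i against PD, all 9 higher, where 18.8% of all genes tested passed in either direction and 9.23% were higher. In 2i against PD 8 passed as higher and 1, Rhox6, as lower, where 23.6% of all genes passed, 11.4% higher and 12.2% lower. In R2i against 2i 4 passed as higher and 4 as lower, where 27.6% of all genes passed, 14.2% higher and 13.4% lower. Nothing is read from these counts, because the genes were chosen on these contrasts. The size of a difference depends on the background correction of the intensities. Without that correction all 44 called differences of the 10 genes, over all comparisons, were smaller, 34 of them by over 1.5 times. Rhox5 then differed by 1.42 in R2i against PD and by 1.29 in 2i against PD, and Fkbp6 by 2.16 in 2i against PD. The levels of each gene, in the plot of single arrays, show how differently the 10 behaved.

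**Figure D2:**
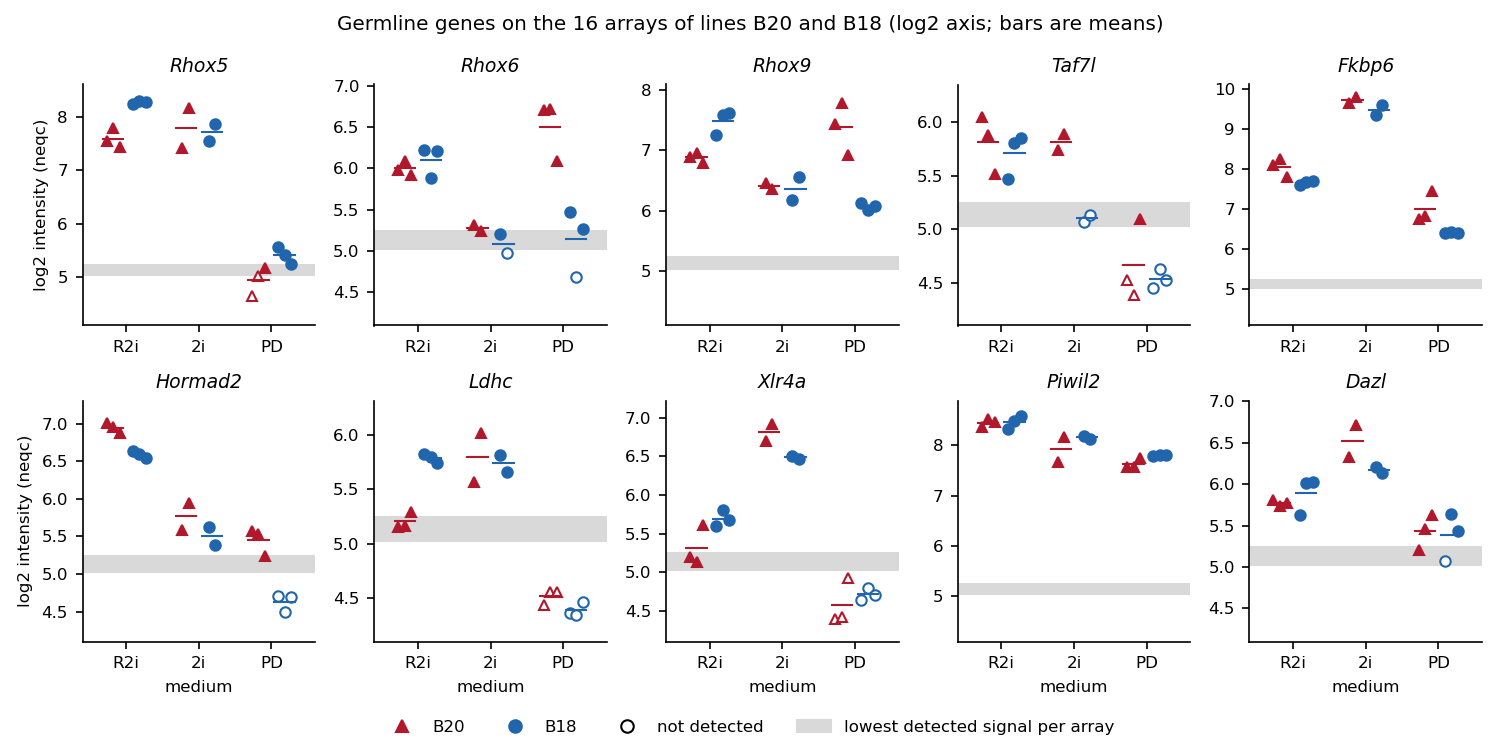
Log2 intensity (vertical axis, its range set per gene) of the 10 genes on the 16 arrays of B20 (red triangles) and B18 (blue circles) in R2i, 2i and PD (horizontal axis). Hollow symbols are arrays on which the probe was not detected, bars are means, and the grey band spans the lowest detected signal of the arrays. Rhox5 and Fkbp6 stand clear of PD in both other media, and Rhox6 and Rhox9 are high in PD in B20 and low in PD in B18.

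Rhox5, the founding member of its cluster, was low in PD and far higher in both other media. In R2i its log2 level was 7.55, 7.78 and 7.44 in B20 and 8.24, 8.30 and 8.27 in B18. In 2i it was 7.42 and 8.17 in B20 and 7.54 and 7.86 in B18. In PD it was 4.65, 5.02 and 5.18 in B20, detected on 1 of 3 arrays, and 5.56, 5.42 and 5.24 in B18. No array of R2i or 2i overlapped a PD array. The difference was 2.75 in R2i against PD, a 6.72-fold higher level, and 2.57 in 2i against PD, a 5.93-fold higher level. R2i and 2i overlapped and differed by 0.18.

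Fkbp6 had its highest level in 2i. It was at 8.11, 8.26 and 7.81 in B20 and 7.62, 7.68 and 7.70 in B18 in R2i. In 2i it was at 9.65 and 9.82 in B20 and 9.35 and 9.61 in B18, above every array of the other media. In PD it was at 6.75, 6.85 and 7.46 in B20 and 6.42, 6.42 and 6.41 in B18. The third PD array of B20 was the highest of the PD arrays and still below every R2i array. The level in 2i was 7.41-fold that in PD, and the level in R2i was 2.21-fold that in PD and differed by -1.75 log2 units from that in 2i. Hormad2 had the opposite order of R2i and 2i.

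Hormad2 was at 7.01, 6.96 and 6.88 in B20 and 6.64, 6.60 and 6.55 in B18 in R2i. In 2i it was at 5.59 and 5.94 in B20 and 5.63 and 5.38 in B18. In PD it was at 5.57, 5.54 and 5.24 in B20, but at 4.71, 4.50 and 4.69 in B18, where it was not detected on any array. R2i thus stood above both other media in each line, by 1.73 over PD and by 1.14 over 2i. For B18, where PD gives only a bound, R2i was at least 2.63-fold and 2i at least 1.24-fold higher than PD. Such bounds set the mean of the brighter group against the lowest signal detected on each array of the dimmer group, or the probe's own signal where that is higher.

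Xlr4a and Dazl, like Fkbp6, were highest in 2i, and for both every 2i array lay above every R2i array. Xlr4a was at 5.20, 5.13 and 5.61 in B20 and 5.60, 5.80 and 5.68 in B18 in R2i, and at 6.70 and 6.92 in B20 and 6.51 and 6.47 in B18 in 2i. It was detected on none of the 6 PD arrays, which ran between 4.39 and 4.93, so only bounds can be given: at least 1.29-fold higher in R2i and at least 2.85-fold higher in 2i. Dazl stayed close to the detection limit, with 5.63 to 6.02 in R2i, 6.13 to 6.71 in 2i and 5.07 to 5.64 in PD. R2i and PD overlapped for Dazl on single arrays.

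Ldhc and Taf7l were near or below the detection limit in PD and dim in the other media. The Ldhc probe of highest mean was at 5.16, 5.16 and 5.29 in B20 and 5.82, 5.79 and 5.74 in B18 in R2i. It was at 5.57 and 6.01 in B20 and 5.81 and 5.66 in B18 in 2i, and on none of the 6 PD arrays was it detected. Its level was at least 1.28-fold higher in R2i and at least 1.54-fold higher in 2i than in PD. The other Ldhc probes were dimmer: ILMN_2665749 was detected only on the 4 arrays in 2i, at 5.13 to 5.48, and ILMN_1248952 on no array. Taf7l was at 6.05, 5.88 and 5.52 in B20 and 5.47, 5.80 and 5.85 in B18 in R2i. In 2i it was at 5.74 and 5.90 in B20, and at 5.07 and 5.13 in B18 without detection. It was detected on 1 of 6 PD arrays, the third of B20, at 5.10. Taf7l in 2i was therefore measured in B20 alone, and no fold against PD is given.

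Piwil2 was detected on all 16 arrays. It was at 8.32 to 8.59 in R2i, 7.68 to 8.19 in 2i and 7.56 to 7.80 in PD. Its R2i arrays lay above all others, by 0.74 over PD and 0.41 over 2i, and 2i overlapped PD.

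Rhox6 and Rhox9 differed from the other 8 in that the direction in R2i against PD was opposite in the 2 lines. Rhox9 was at 6.89, 6.96 and 6.79 in R2i and at 7.43, 7.79 and 6.91 in PD in B20. In B18 it was at 7.24, 7.58 and 7.62 in R2i and at 6.13, 6.01 and 6.07 in PD. In 2i it was at 6.46 and 6.35 in B20 and 6.18 and 6.55 in B18. The lines thus met in 2i and parted in R2i and, in the opposite order, in PD. Rhox6 was at 5.98, 6.09 and 5.92 in R2i and at 6.70, 6.71 and 6.08 in PD in B20. In B18 it was at 6.22, 5.88 and 6.21 in R2i and at 5.47, 4.69 and 5.27 in PD, where 2 of 3 arrays detected it. In 2i it was at 5.31 and 5.24 in B20 and at 5.20 and 4.97 in B18. For both genes the third PD array of B20 lay between the other PD arrays of B20 and those of B18.

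The difference of the medium effect between the lines was fitted as an interaction over all 9207 genes (limma, Benjamini-Hochberg over all genes). It uses the arrays on which the 10 genes were chosen, and changes within 1 line may have been part of that choice, so the values are a description and no p is given for them. For R2i against PD 3 of the 10 genes passed, where 4.27% of all genes did. Rhox9 differed by -1.90 (log2, B20 minus B18, SE 0.24). Rhox6 differed by -1.47 (SE 0.26). Rhox9 in R2i minus PD was -0.50 in B20 and 1.41 in B18, and Rhox6 likewise -0.50 in B20 and 0.96 in B18. Without the third PD array of B20 the differences between lines were -2.13 for Rhox9 and -1.66 for Rhox6, larger than with it.

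Ldhc, the third gene, differed by -0.70 (SE 0.15). It was below detection in PD in both lines, so this value rests on its level in R2i, 5.16 to 5.29 in B20 and 5.74 to 5.82 in B18, and on PD signals that are bounds. Without background correction it was -0.25 and did not pass. The 7 genes that did not pass included Rhox5, at -0.22, and Hormad2, at -0.46, the second with PD below detection in B18. That they missed the threshold does not show that the lines respond alike.

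For 2i against PD, 2 genes passed where 1.72% of all genes did, again Rhox9 at -1.26 (SE 0.26) and Rhox6 at -1.17 (SE 0.29). This comparison holds 2 arrays in 2i per line and was easily lost. Rhox6 passed in 6 of 22 settings and Rhox9 in 16 of 23. The count was 0 without either 2i array of B20, the second of B18, the second PD array of B18, the third PD array of B18 or the first PD array of B20, and 4 without the third PD array of B20. For R2i against 2i 0 of the 10 genes passed in limma, where 1.35% of all genes did, and 5 had an unadjusted p under 0.05. The PD arrays enter neither side of that comparison.

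**Figure D3:**
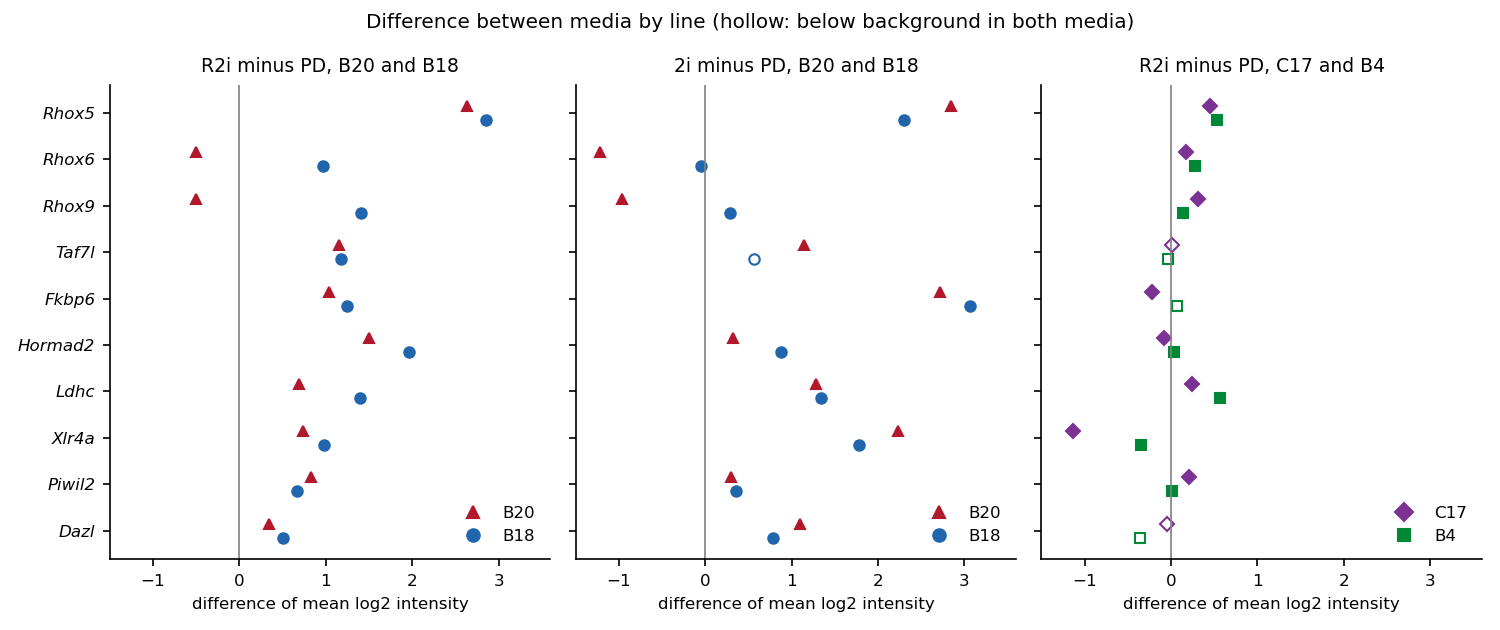
Difference of mean log2 intensity between media (horizontal axis) for each gene (vertical axis), with R2i minus PD and 2i minus PD in B20 (red triangles) and B18 (blue circles), and R2i minus PD in C17 (purple diamonds) and B4 (green squares). Hollow symbols are differences with no detection in either medium. Rhox6 and Rhox9 fall on opposite sides of 0 in B20 and B18 for R2i minus PD, and in C17 and B4 all but Xlr4a in C17, at -1.13, lie between -0.36 and 0.56.

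Genes of the early germ cell program were read beside the Rhox genes. Dppa3, a maternal and germ cell factor that protects methylation marks, was at 7.55, 7.50 and 7.60 in B20 and 8.08, 8.25 and 8.16 in B18 in R2i, and at 6.40, 6.69 and 6.33 in B20 and 4.91, 5.37 and 4.76 in B18 in PD. In PD in B18 it was detected on 1 of 3 arrays and in 2i in B20 on 1 of 2, so the values that follow rest in part on signals below detection. Its effect of R2i against PD differed by -2.07 between lines (B20 minus B18, SE 0.24, adjusted p = 2.2e-04 with limma), and that of 2i against PD by -2.45 (SE 0.26, adjusted p = 1.9e-04 with limma). Tfap2c, a transcription factor of primordial germ cells and trophoblast, differed by -0.81 and -0.89 in the same 2 comparisons (adjusted p = 0.013 and 0.026 with limma). In PD both genes were thus higher in B20 than in B18, the order that Rhox6 and Rhox9 had. Tfap2c on the third PD array of B20, at 10.85, lay below the other 2, at 11.38 and 11.42, and above the B18 arrays, at 10.46 to 10.67. Of the 5 genes of this list that passed the filter, these 2 differed between lines in each of the 2 comparisons. The other 3 did not pass, where 4.27% of all genes passed for R2i against PD and 1.72% for 2i against PD. The list was chosen with earlier results of these data known, so its p-values may not be independent of that choice.

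Averaged over the 3 media, 5 of the 10 genes differed between B20 and B18, where 33.0% of all genes did, so the share is not far from that of all genes. Hormad2 was below detection in PD in B18, and Taf7l in PD and 2i in B18 and on 2 of 3 PD arrays of B20, so their values rest in part on such signals. Hormad2 was 0.48 higher in B20 (log2, SE 0.07), Rhox6 was 0.48 higher and Fkbp6 0.42 higher. For Rhox6 this average rests mostly on PD, with means of 6.50 in B20 and 5.14 in B18. Its means in R2i were 6.00 in B20 and 6.10 in B18, and in 2i 5.28 and 5.09. Taf7l was 0.32 higher in B20, a call lost without the first 2i array of B18 or the second of B20. Rhox5 was lower in B20, by -0.35, a call lost without the second 2i array of B18 or the first of B20. Of the Y-linked genes, Ddx3y, Eif2s3y and Uty did not pass in this comparison, with differences of -0.16, -0.03 and -0.12 (adjusted p = 0.14, 0.75 and 0.24 with limma).

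Genes with a like pattern were sought by the root mean square difference of the 6 group means of line and medium, each gene centred on its own mean. Bcas1, Dpp4 and the germ cell gene Tex19.2 were nearest to Rhox5, at 0.61, 0.75 and 0.77 log2 units. Gpx2, Adh1 and Fthl17f were nearest to Fkbp6, at 0.35, 0.49 and 0.55. Spic, 4930447C04Rik and the Y-linked zinc finger gene Zfy1 were nearest to Hormad2, at 0.27, 0.35 and 0.36. These are descriptions over 6 groups, and each of these neighbours spanned less than the gene it was set beside. Rhox5 spanned 3.32 log2 units over the 6 means, against 1.99 for Bcas1, 2.84 for Dpp4 and 1.87 for Tex19.2.

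A list of 68 further germ cell genes had 55 members on the array, of which 19 passed the filter and were tested. It too was chosen with earlier results of these data known, so its counts and p-values may not be independent of that choice. A gene that passes only through the medium where it is high has to differ, and most of the list did not pass at all. In R2i against PD 10 of the 19 rose and 1, Dnd1, fell, where 18.8% of all genes passed and 9.23% were higher. The largest were Tex19.2 and Tex19.1, linked to transposon control in germ cells, at 1.03 and 0.85 (adjusted p = 4.6e-04 and 5.2e-06 with limma), the egg coat gene Zp3 at 1.01, Stk31 at 0.71 and Tex11, an X-linked meiotic gene, at 0.62 (adjusted p = 2.7e-05, 4.0e-04 and 0.0029 with limma). In 2i against PD 12 rose and 1, Tdrd7, fell, where 23.6% of all genes passed, 11.4% higher and 12.2% lower. Tex19.2 was 1.61 higher, Tex19.1 0.92, the meiotic cohesin gene Stag3 0.88, Stk31 0.79 and the piRNA gene Piwil1 0.76 (adjusted p at most 3.6e-04 for each with limma). Tdrd7 was detected on 6 of the 16 arrays, Tex19.2 on 11, Stk31 on 12, and Zp3 and Tex11 on 15. Their calls may owe part to the filter. Tex19.1, Stag3, Dnd1 and Piwil1 were detected on all 16. The median over the 19 was 0.24 in R2i against PD and 0.37 in 2i against PD, and over all genes tested 0.01 and -0.01. In R2i against 2i 3 were higher and 6 lower, where 27.6% of all genes passed, 14.2% higher and 13.4% lower. Without the third PD array of B20 the counts in all 3 comparisons were the same. In the difference between lines 0 of the 19 passed in limma for R2i against PD, 2i against PD or R2i against 2i. Of all genes 4.27%, 1.72% and 1.35% passed there, so 0 of 19 is no contrast with the counts of the 10 genes. An unadjusted p under 0.05 was seen for 3, 1 and 1 of the 19. The meiotic genes Sycp1, Sycp3, Dmc1, Spo11 and Stra8 were not detected on any of the 16 arrays.

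Of 8 genes tested that write, erase or maintain DNA methylation or act on these steps, 2 were higher and 1 lower in R2i than in PD, where 18.8% of all genes passed. The de novo methyltransferase gene Dnmt3b was 0.73 higher (adjusted p = 6.5e-07 with limma), Apobec1 0.55 higher (adjusted p = 3.0e-05 with limma) and Prdm14, which restrains de novo methylation, had a difference of -0.52 (adjusted p = 6.4e-04 with limma). In 2i against PD 3 were higher and 3 lower, where 23.6% of all genes passed. Prdm14 and the methyltransferase cofactor gene Dnmt3l were at -0.58 and -0.54 (adjusted p = 5.4e-04 and 5.3e-05 with limma), and Apobec1, Dnmt1 and Uhrf1 were 0.33, 0.32 and 0.26 higher (adjusted p = 0.0051, 0.015 and 0.011 with limma). For R2i against PD the effect on Dnmt3l, Dnmt3b and Prdm14 differed between B20 and B18, by 0.61, 0.50 and -0.98 (adjusted p = 0.016, 0.045 and 0.0062 with limma). The other 5 did not pass, where 4.27% of all genes did. For 2i against PD and R2i against 2i 0 of the 8 differed between lines, where 1.72% and 1.35% of all genes did.

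Of 14 repressor genes tested, Pcgf6, a subunit of the complex that holds E2F6 and MGA, was 0.27 higher in R2i than in PD (adjusted p = 0.0087 with limma) and the other 13 did not pass, where 18.8% of all genes passed. E2f6 and Mga themselves were at 0.17 and 0.09 (adjusted p = 0.12 and 0.66 with limma). In 2i against PD Trim28, Ring1 and L3mbtl2 were lower, at -0.41, -0.37 and -0.24 (adjusted p = 0.0011, 0.0028 and 0.038 with limma), where 23.6% of all genes passed. In R2i against 2i 2 were higher and 0 lower, where 27.6% of all genes passed.

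On every array of C17 and B4 the Rhox genes had a higher signal than on any array of B20 and B18, and Fkbp6, Dazl and Piwil2 a lower one. The 2 platforms were normalized separately and the ranges cover unlike media, with SB in C17 and B4 alone and 2i in B20 and B18 alone, so levels are set side by side with no test between them. The upper quartile of raw intensity over the negative controls was 1.32 to 1.38 on MouseWG-6 and 1.99 to 2.41 on MouseRef-8. Ddx3y, given above, was also lower on MouseWG-6. The log2 of the summed pluripotency signal was 14.86 to 15.34 on MouseWG-6 and 15.22 to 15.74 on MouseRef-8. The part of the platform in either order was not tested. On the same probe, Rhox5 was at 10.35 to 11.11 in C17 and 10.66 to 11.72 in B4, against 4.65 to 8.17 in B20 and 5.24 to 8.30 in B18. Rhox9 was at 8.92 to 9.93 in C17 and 10.20 to 10.73 in B4, against 6.35 to 7.79 in B20 and 6.01 to 7.62 in B18. Rhox6 was at 8.35 to 8.52 in C17 and 8.12 to 8.86 in B4, against 5.24 to 6.71 in B20 and 4.69 to 6.22 in B18. Xlr4a was at 7.61 to 8.74 in C17 and 6.57 to 7.29 in B4, against 4.39 to 6.92 in B20 and 4.64 to 6.51 in B18, so that B4 and B20 overlapped. Fkbp6, Dazl and Piwil2 had the opposite order to the Rhox genes. Fkbp6 was at 5.20 to 5.52 in C17 and was not detected in B4, against 6.75 to 9.82 in B20 and 6.41 to 9.61 in B18. Neither Dazl probe was detected on any of the 6 arrays, and Piwil2 was at 6.07 to 7.11 in C17 and 5.90 to 6.53 in B4, against 7.56 to 8.52 in B20 and 7.79 to 8.59 in B18. Taf7l was detected on 1 of the 6 arrays, C17 in SB, at 5.26.

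**Figure D4:**
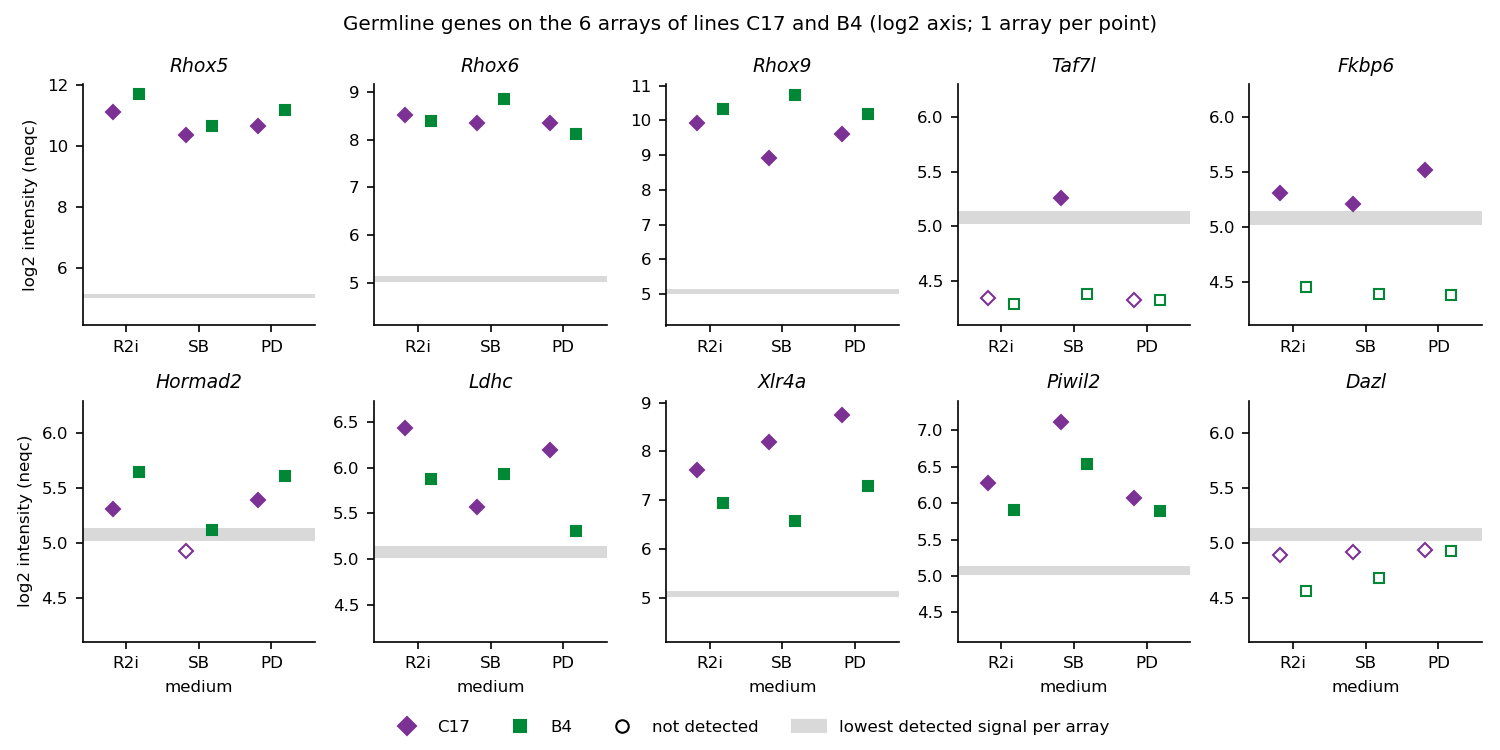
Log2 intensity (vertical axis, its range set per gene) of the 10 genes on the 6 arrays of C17 (purple diamonds) and B4 (green squares) in R2i, SB and PD (horizontal axis). Each symbol is 1 array, hollow where the probe was not detected, and the grey band spans the lowest detected signal of the arrays. All 3 Rhox genes are high in every medium, Rhox5 between 10.35 and 11.72.

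The contrasts between media in C17 and B4 use other arrays than the rule did and were tested, with the line as the only replicate and 2 residual degrees of freedom. In R2i against PD, 0 of the 8 genes tested passed (limma), where 0.136% of all genes did, and 2, Rhox5 and Xlr4a, had an unadjusted p under 0.05. Rhox5 was at 11.11 in R2i and 10.66 in PD in C17, and at 11.72 in R2i and 11.18 in PD in B4, a difference of 0.49 (SE 0.15, adjusted p = 0.30 with limma), higher in both lines. Xlr4a was at 7.61 in R2i and 8.74 in PD in C17, and at 6.95 in R2i and 7.29 in PD in B4, a difference of -0.74 (SE 0.21, adjusted p = 0.28 with limma). It was lower in both lines, whereas in B20 and B18 it was higher in R2i. Without the B4 array in R2i its difference was -1.17 with an adjusted p of 0.036 (limma), and without the C17 array in R2i it was -0.31 with an adjusted p of 0.82 (limma). Fkbp6 and Hormad2 differed by -0.07 and -0.03, and Ldhc, Rhox9, Rhox6 and Piwil2 by 0.40, 0.22, 0.22 and 0.11. On simulated data with 200 changed genes this design recovered 33.5% of genes changed by 0.5 log2 units and 99.5% of those changed by 1. In the measured contrast 15 genes passed, and the adjusted threshold is stricter where fewer genes pass. The SE was 0.24 for Ldhc and 0.28 for Rhox9. The simulated shares are thus not the rate at which a change in these 8 genes would be seen.

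Piwil2 was higher in SB than in PD, at 7.11 and 6.07 in C17 and at 6.53 and 5.90 in B4, a difference of 0.84 (SE 0.15, adjusted p = 0.012 with limma). It was the only one of the 8 that passed, where 5.23% of all genes did. The call was lost without the C17 array in PD, at an adjusted p of 0.15, and without that in SB, at 0.089 (limma). In R2i against SB 2 genes passed, where 2.20% of all genes did. Rhox5 was 0.90 higher in R2i (SE 0.15, adjusted p = 0.014 with limma), with 11.11 in R2i and 10.35 in SB in C17 and 11.72 in R2i and 10.66 in SB in B4. Piwil2 differed by -0.73 (SE 0.15, adjusted p = 0.039 with limma). Both calls were lost without either R2i array, at adjusted p of 0.076 and 0.081 for Rhox5, and Piwil2 also without the C17 array in SB. The count was 4 without the B4 array in SB.

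Between the lines, 5 of the 8 genes differed, where 31.6% of all genes did. Xlr4a was 1.24 higher in C17 than in B4 (SE 0.17, adjusted p = 9.2e-04 with limma). Rhox9 differed by -0.93 (SE 0.23, adjusted p = 0.013 with limma) and Rhox5 by -0.48 (SE 0.12, adjusted p = 0.013 with limma), both lower in C17. The SB arrays, at 8.92 in C17 and 10.73 in B4, weighed most on Rhox9, which differed by -0.49 without that of C17 and by -0.50 without that of B4 (adjusted p = 0.03 and 0.025 with limma). Fkbp6 averaged 5.34 in C17 against a measured 4.41 below detection in B4, at least 1.25-fold higher in C17. It passed the filter on dim probes through C17 alone, so its place among the 5 was fixed by the filter. Piwil2 was 0.38 higher in C17 (adjusted p = 0.042 with limma), a call lost with any 1 of the 6 arrays left out. The call of Rhox5 was lost without any 1 of the R2i or PD arrays. Eif2s3y, a Y-linked gene, was detected on 3 of 3 arrays of C17, at 5.62 to 6.28, and on 0 of 3 of B4, beside Ddx3y on all 6.

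Of the 68 further germ cell genes, 60 were on MouseWG-6 and 17 were tested. In R2i against PD and in R2i against SB 0 passed in limma, where 0.136% and 2.20% of all genes did. An unadjusted p under 0.05 was seen for 3 and 4. In SB against PD 1 passed, where 5.23% of all genes did. This was Tex11, lower in SB at -0.71 (adjusted p = 0.019 with limma). Zp3, which rose in R2i against PD in B20 and B18, was 1.01 higher in C17 and B4 with an adjusted p of 0.11 (limma). Between C17 and B4, 8 were higher and 2 lower in C17, where 31.6% of all genes passed in either direction. The X-linked gene Rhox13 was 1.01 higher in C17 and Zp3 was at -1.30 (adjusted p = 3.7e-04 and 5.9e-04 with limma). Insl3, a Leydig cell gene, was detected on all 6 arrays of C17 and B4, and the other 7 genes of the Sertoli and Leydig list on none. Of the 9 fibroblast genes 1 to 2 were detected in R2i, 2 in SB and 1 in PD, with summed log2 signals of 7.82 to 8.37 in R2i, 7.87 to 8.14 in SB and 7.68 to 7.77 in PD. The part of these markers in the results was not tested.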

How the data were processed

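RNA of 22 samples was read on Illumina bead arrays, MouseRef-8 v2 for B20 and B18 and MouseWG-6 v2 for C17 and B4. The authors deposited, per the file headers, a mean bead intensity and a detection p-value for each probe and array, without normalization, and log2 tables of the same arrays. The deposited log2 values were used only as an alternative. GenomeStudio and limma are named, with no version, per the submitters' processing notes. A genome build for the probes is not given in the sources used here.

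Intensities were background-corrected against negative control probes and quantile-normalized within each platform (neqc, offset 16). Probes with a detection p-value under 0.01 on at least 2 arrays were kept, and each gene took its probe of highest mean. limma 3.58.1 in R 4.3.3 fitted 1 mean per line and medium in B20 and B18, with both lines weighted equally, and medium plus line in C17 and B4. Calls are Benjamini-Hochberg adjusted p under 0.05 over all genes of the platform. On simulated data the design of B20 and B18 recovered 95% of 200 genes changed by 0.5 log2 units in R2i against PD. Other old symbols were updated through RefSeq (GRCm38.p6). Value columns that belong to no sample here number 0.

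The 10 genes and all lists were chosen with earlier results of these data known. Their counts and p-values may thus not be independent of that choice. All 10 are named, with up to 5 called genes of largest change from each list (other germ cell genes, DNA methylation genes, repressors, primordial germ cell genes), and the 3 genes of nearest pattern for Rhox5, Fkbp6 and Hormad2. Alternatives were no background correction, median scaling, other filters, every probe as a feature, the deposited log2 values, a replicate block and leaving out each array.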

Additional observations from a re-analysis of the deposited data

Results flagged for a closer look

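Effects of medium that passed the test of the difference between lines B20 and B18 (limma, adjusted p under 0.05 over all genes) were those of Rhox9, Rhox6 and Ldhc, on the arrays these genes were chosen on. Rhox9 in R2i against PD differed by -1.90 (B20 minus B18, log2), and all 3 B18 arrays in R2i lay above those in PD while 2 of 3 PD arrays of B20 lay above its R2i arrays. Rhox6 in R2i against PD differed by -1.47. Ldhc in R2i against PD differed by -0.70, with PD below detection in both lines. In 2i against PD Rhox9 differed by -1.26 and Rhox6 by -1.17. Each line was on a chip of its own, so line and chip cannot be told apart.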

How the results depend on the processing

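Without background correction all 44 called differences were smaller, 34 of them by over 1.5 times. Counts of the 10 genes called moved as follows; those between media in B20 and B18 are a description, since the genes were chosen there. With only probes detected on every array, where Rhox9, Fkbp6 and Piwil2 remained, the counts were 3 for R2i against PD, 2 for 2i against PD, 3 for R2i against 2i, 1 for B20 against B18, and 1 each for the difference between lines in R2i against PD and in 2i against PD. Without a detection filter they were 0 for the difference in 2i against PD, 3 for C17 against B4, 0 for R2i against SB and 0 for SB against PD. With every probe as a feature the difference in 2i against PD gave 1, and without background correction R2i against SB gave 1 and SB against PD 0. Median scaling gave 1 for the difference between lines in R2i against 2i. Replicate numbers did not pair the arrays, since 2 of 14 same-numbered pairs had a correlation of deviations above 0.1 (range -0.12 to 0.13). With the replicate number as a block, the difference in R2i against 2i gave 1 gene, Xlr4a at -0.87, and the other counts stayed within 1.5 times. No block was fitted for B20 against B18, whose numbers are nested in line, and in C17 and B4 there are no replicate numbers.

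Leaving out 1 array at a time, the counts ranged from 9 to 9 for R2i against PD, 8 to 10 for 2i against PD, 7 to 9 for R2i against 2i and 4 to 6 for B20 against B18. The difference between lines ranged from 3 to 4 in R2i against PD, 0 to 4 in 2i against PD and 0 to 1 in R2i against 2i. In C17 and B4 the range was 0 to 1 for R2i against PD, 0 to 4 for R2i against SB, 0 to 2 for SB against PD and 3 to 5 for C17 against B4. A lone remaining array was taken to vary like the others. Values that changed sign were all uncalled. In R2i against PD in C17 and B4 the differences ranged from -0.22 to 0.08 for Fkbp6, -0.04 to 0.26 for Piwil2, -0.09 to 0.04 for Hormad2 and -0.18 to 0.62 for Rhox9. In R2i against 2i Rhox5 ranged from -0.01 to 0.37. Signal over background limits each probe that was not detected on the arrays of a group, such as Ldhc and Xlr4a in PD in B20 and B18. The causes were not tested beyond the smaller sets of genes and arrays that the settings leave.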
